A study of Rattus norvegicus with 6 samples.

Results

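Small leucine-rich proteoglycans (SLRPs) and the large proteoglycans versican and perlecan are secreted matrix molecules, each a core protein that in most cases carries sulfated sugar chains. Their core protein genes were followed in aortas from rats whose kidneys had been surgically reduced (a chronic kidney disease model) and that received engineered exosomes or saline. The members were taken by gene symbol from a list of 10 core protein genes, and 9 of them were found among the 24005 gene symbols of the expression table. These were Dcn, Bgn and Aspn (class I SLRPs), Lum, Fmod and Prelp (class II), Ogn (class III) and the large proteoglycans Vcan and Hspg2. Podn, a class V SLRP, was not analysed here. All 9 passed the minimum for testing, a mean of at least 1 FPKM over the 6 libraries, as did 11742 genes in all.

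The exosome group was dosed at 10 mg/kg with vesicles named ANCR/E7-EXO in the labels, through the tail vein every 5 days, and the saline group received an equal volume of saline for 13 weeks. Both groups had 5/6 of the kidney mass removed in staged operations and ate a diet with 1.2% phosphorus to accelerate calcification, so no rat without kidney disease served as a control. Each group held 3 libraries of aortic RNA, called exosome 1 to 3 and saline 1 to 3. No rat strain, sex or age, and no statement that each library came from a different rat, is in the sources used here, and the p-values below therefore reflect differences among libraries that may be technical. Values are FPKM, reads scaled to gene length and library total, which allows levels to be compared between genes.

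In the arterial wall, SLRPs sit on collagen fibrils and steer how thick and how regularly spaced the fibrils become, and some of them bind growth factors of the TGF-beta family. Versican binds hyaluronan and fills the space between smooth muscle cells with a hydrated, compressible gel. Perlecan carries heparan sulfate chains and is a structural part of the basement membranes around smooth muscle cells and under the endothelium. Proteoglycan chains also retain lipoproteins in diseased arteries.

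The smooth muscle markers of the aorta were abundant in every library, with Acta2 between 4584 and 9086 FPKM. Library totals implied by the FPKM steps ranged from 28063355 to 44561082. Of all genes tested, 60.7% had a lower mean of log2(FPKM + 1) with exosomes, and the median log2 difference over all genes tested was -0.07. Counts of higher and lower means use this log2 scale throughout. The summed level of 6 macrophage markers was 89.6 to 106.6 FPKM in exosome libraries and 62.8 to 72.4 in saline libraries, with all 6 means higher with exosomes. The sum of 6 endothelial markers was 101.7 to 160.8 FPKM in exosome libraries and 66.3 to 95.7 in saline libraries, with 5 of 6 means higher with exosomes. The other marker sums overlapped between groups. For 6 adventitial fibroblast markers, cells that make many SLRPs, they were 853.1 to 1399.6 FPKM with exosomes and 1175 to 1223 with saline. For 6 adipocyte markers they were 355.9 to 627.3 FPKM with exosomes and 318.1 to 1099 with saline. For 5 mesothelial markers they were 0.247 to 5.01 FPKM with exosomes and 0.239 to 30.1 with saline, and Upk3b of that list was listed at 0 in at least 1 library. Of 6 T and B lymphocyte markers none reached the minimum for testing, and Myh4, a skeletal muscle myosin gene, was listed at 0 in every library. The part of these cell types in the results below was not tested, and in bulk tissue fewer cells of a type and less RNA per cell cannot be told apart.

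The core protein genes spanned more than 3 orders of magnitude. Averaged over the 6 libraries the order was Bgn (3918 FPKM), Dcn (1194), Prelp (569.5), Lum (427.7), Fmod (213.8), Hspg2 (183.0), Vcan (80.8), Ogn (62.4) and Aspn (1.82). Bgn had the rank 10 by mean level among all gene symbols of the table, Dcn 37, Prelp 84 and Lum 119. The ranges over libraries overlapped for the neighbours Prelp and Lum, Fmod and Hspg2, and Vcan and Ogn. The other neighbours in this order did not overlap, although the lowest Lum library (270.7 FPKM) was close to the highest Fmod library (262.0 FPKM). The lengths implied by the FPKM steps were 7906 bases for Vcan and 14492 bases for Hspg2, so a level of either gene rests on the transcript model the authors used.

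**Figure D1:**
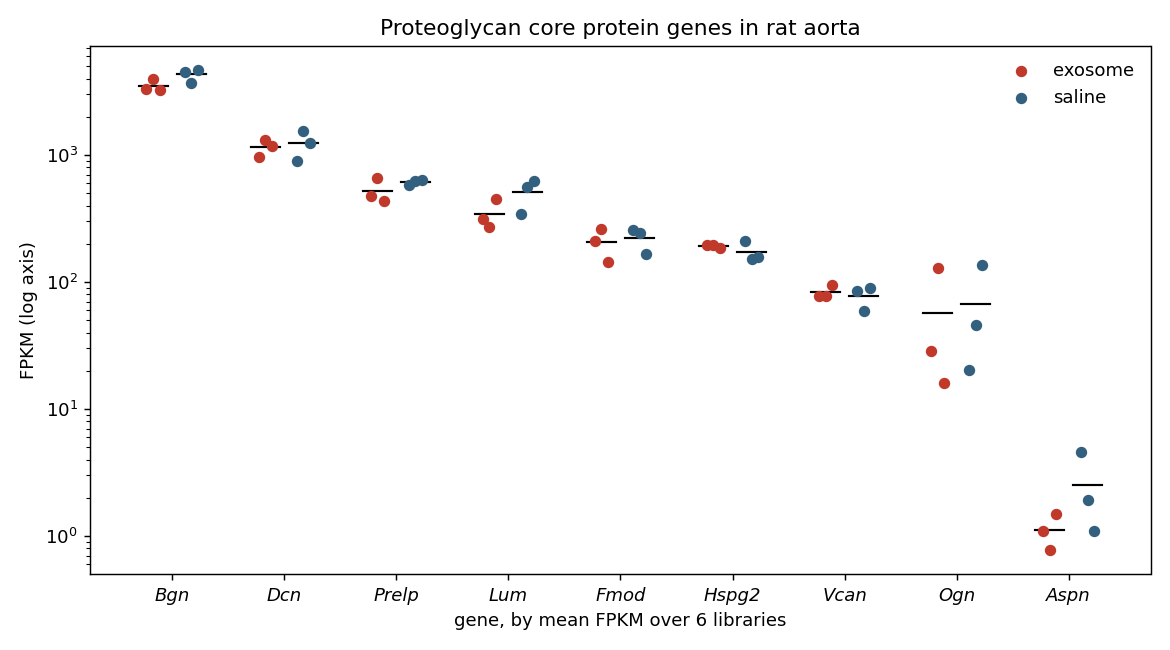
FPKM of 9 proteoglycan core protein genes in each library, on a log axis, with exosome libraries in red to the left of saline libraries in blue. Black lines are group means of 3 libraries. Bgn lies near 3918 FPKM and Aspn near 1.82 FPKM, the groups overlap for every gene, and Ogn has the widest spread within groups.

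Before the values by gene, the bases ahead of 4 of these genes are shown, because they include the SLRP with the smallest unadjusted p (Lum), the large proteoglycan with the smaller p (Hspg2) and the class III gene beside a class I gene of the same neighbourhood (Ogn and Aspn). The sequences are the 150 bases before the annotated start in RefSeq's GRCr8 promoter windows, on the strand of the gene, 5′ to 3′. They come from chr5:154960696-154960845 (plus strand) for Hspg2, chr7:34245556-34245705 (plus strand) for Lum, chr17:15258996-15259145 (minus strand) for Ogn and chr17:15310470-15310619 (minus strand) for Aspn. Capitals mark matches on either strand to the GC box GGGCGG, the TATA box TATAAA and the CCAAT box CCAAT. No marked matches overlapped.
Hspg2: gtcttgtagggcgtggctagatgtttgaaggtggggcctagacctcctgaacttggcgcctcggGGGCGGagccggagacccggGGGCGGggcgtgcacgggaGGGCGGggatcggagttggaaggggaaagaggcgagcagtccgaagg
Lum: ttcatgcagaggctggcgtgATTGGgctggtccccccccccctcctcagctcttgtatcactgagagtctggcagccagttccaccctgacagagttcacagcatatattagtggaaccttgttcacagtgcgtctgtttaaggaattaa
Ogn: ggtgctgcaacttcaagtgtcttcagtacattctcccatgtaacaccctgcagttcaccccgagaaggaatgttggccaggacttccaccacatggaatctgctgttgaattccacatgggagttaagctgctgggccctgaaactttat
Aspn: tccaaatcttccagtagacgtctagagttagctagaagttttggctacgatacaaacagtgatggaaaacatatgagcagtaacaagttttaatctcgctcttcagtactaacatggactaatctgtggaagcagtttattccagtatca
The Hspg2 window held 3 GC boxes and 13 CpG dinucleotides at 68.0% GC, against medians of 4 CpG and 52.7% GC over 33469 rat windows of the same length, of which 26.0% held a GC box. The Lum window held 1 CCAAT box on the opposite strand (23.5% of all windows held at least 1) and 2 CpG at 52.0% GC. The Ogn window (1 CpG, 49.3% GC) and the Aspn window (3 CpG, 38.0% GC) held none of the motifs, and the TATA box, present in 8.0% of all windows, was in none of the 4. The table held windows for 7 of the 10 listed genes and none for Dcn, Bgn and Prelp.

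The comparison asked whether exosome-treated aortas differed from saline-treated aortas in these core protein genes. None of the 9 passed an adjusted p of 0.05 in limma on log2(FPKM + 1) across all genes tested, where 1 gene in all, Zbtb16, did (0.00852%). None had an unadjusted p under 0.05, against 16.0% of all genes tested, and limma-voom on reads recovered from the FPKM values also called 0 of 9. The exosome and saline libraries did not separate for any of them, while 21.1% of all genes had groups that did not overlap. The means of all 7 SLRP genes were lower with exosomes, at a median log2 difference of -0.29, and the means of both large proteoglycans were higher. Among all genes tested, 60.7% had a lower and 39.3% a higher mean with exosomes in the deposited FPKM. The lower share was 56.1% after rescaling to the same total (TPM), 51.5% after rescaling to the median of ratios and 52.2% after quantile normalization, and all 7 SLRP means stayed lower in each. The 7 lower SLRP means became 6 without exosome 1, without saline 2 or without saline 3 and 5 without exosome 3, and the 2 higher means of the large proteoglycans became 1 without saline 2.

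**Figure D2:**
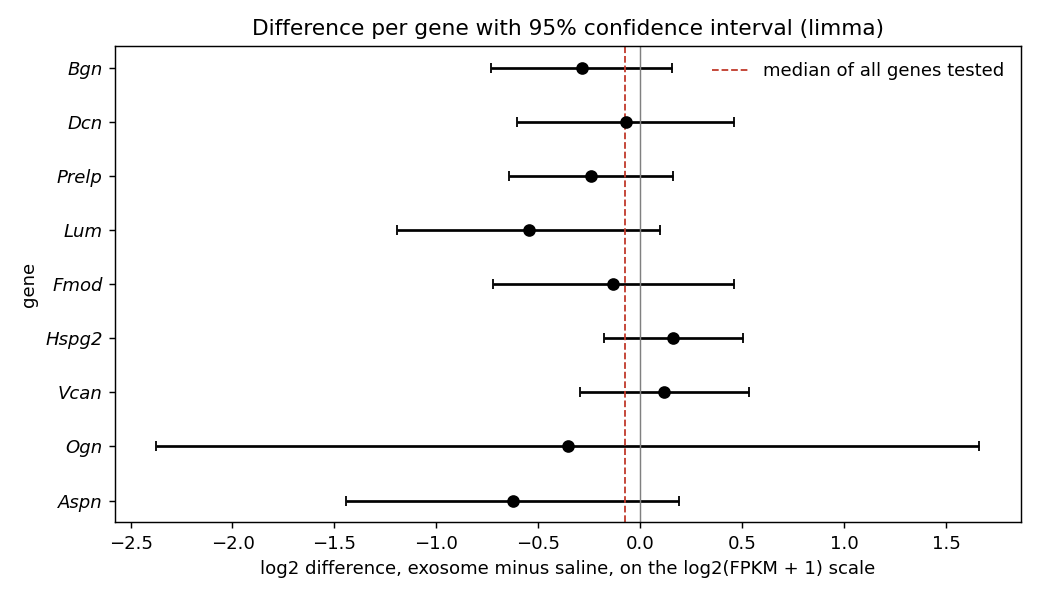
Log2 difference of each gene, exosome minus saline, on the log2(FPKM + 1) scale (points) with the 95% confidence interval of the limma fit (bars, 3 libraries in each group). Every interval includes 0, the 7 SLRP points lie below 0 and those of Hspg2 and Vcan above it. The dashed line is the median of all genes tested, -0.07.

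Among class I genes, Bgn encodes biglycan, which carries chondroitin or dermatan sulfate chains, binds collagen and can act as a danger signal when it is released from matrix. Bgn stood at 3336, 3992 and 3256 FPKM in exosome 1, 2 and 3, against 4528, 3719 and 4678 FPKM in saline 1, 2 and 3. Exosome 1 and 3 lay below all saline libraries, while exosome 2 lay above saline 2. The log2 difference was -0.29 with a standard error of 0.19 (adjusted p = 0.455 in limma), and its 95% interval reached from 0.602-fold to 1.11-fold. Between 268098 and 386605 reads per library stood behind these values, so counting error was small beside the spread between libraries.

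Dcn encodes decorin, which binds type I collagen and limits fibril width, and which binds TGF-beta. It stood at 969.6, 1309 and 1183 FPKM in the exosome libraries, against 898.3, 1556 and 1249 FPKM in the saline libraries. All 3 exosome values lay inside the saline range. Its log2 difference was -0.07 with a standard error of 0.23 (adjusted p = 0.884 in limma), an interval of 0.657-fold to 1.38-fold. It was -0.00017 after rescaling to the median of ratios and above 0 without exosome 1 or without saline 2.

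Aspn encodes asporin, an SLRP with no typical site for a sugar chain that competes with decorin for collagen. It had the lowest level of the 9 genes, at 1.09, 0.774 and 1.49 FPKM in the exosome libraries, against 4.58, 1.91 and 1.09 FPKM in the saline libraries. Its reads numbered 93, 54 and 165 in the exosome libraries, against 382, 141 and 92 in the saline libraries. Saline 1 stood alone above the rest, and saline 3 and exosome 1 were nearly equal. Aspn differed by -0.63 on the log2 scale with a standard error of 0.35 (adjusted p = 0.391 in limma), and -0.23 without saline 1.

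Among class II genes, Lum encodes lumican, a keratan sulfate proteoglycan of collagen fibrils. It stood at 312.2, 270.7 and 453.3 FPKM in the exosome libraries, against 340.7, 560.4 and 628.8 FPKM in the saline libraries. Exosome 1 and 2 lay below all saline libraries, and exosome 3 lay between saline 1 and saline 2. Lum had the smallest unadjusted p of the 9 genes (0.0844), with a log2 difference of -0.55, a standard error of 0.28 and an adjusted p of 0.356 in limma. The interval reached from 0.438-fold to 1.07-fold. The adjusted p was 0.0244 with library weights, an estimate that did not converge, and 0.0825 with gene-by-gene weights. Leaving out each library in turn gave -0.81 (without saline 1) to -0.37 (without saline 3).

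Prelp encodes a proline- and arginine-rich SLRP that binds both collagen and the heparan sulfate of perlecan. It stood at 478.8, 660.9 and 437.9 FPKM in the exosome libraries, against 576.2, 626.4 and 636.9 FPKM in the saline libraries. Exosome 2 was the highest library of the 6 and the other exosome libraries were the lowest. The group means were 525.9 ± 118.7 FPKM with exosomes and 613.1 ± 32.4 FPKM with saline (SD, n = 3 each). Prelp had a log2 difference of -0.24 with a standard error of 0.17 (adjusted p = 0.484 in limma), and with library weights the adjusted p was 0.0389, against 0.1002 with gene-by-gene weights. The difference was -0.42 without exosome 2 (adjusted p = 0.121 in limma) and -0.12 without exosome 3.

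Fmod encodes fibromodulin, which binds collagen and takes part in its cross-linking. It stood at 210.6, 262.0 and 143.2 FPKM in the exosome libraries, against 257.7, 242.9 and 166.3 FPKM in the saline libraries. The highest and the lowest library were both exosome libraries. Fmod had a log2 difference of -0.13 with a standard error of 0.25 (adjusted p = 0.800 in limma), and it was above 0 without exosome 3.

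Ogn, the class III gene, encodes osteoglycin, also called mimecan, which binds collagen and was first purified from bone. It stood at 28.5, 128.1 and 16.0 FPKM in the exosome libraries, against 20.2, 45.6 and 136.1 FPKM in the saline libraries. Each group held 1 library above 120 FPKM, exosome 2 and saline 3, and at least 1 library below 30. The highest library was 8.02 times the lowest among exosome libraries and 6.75 times among saline libraries, where Bgn spanned 1.23 times and 1.26 times. From 1997 to 13663 reads stood behind the values. Ogn had a log2 difference of -0.35 with a standard error of 0.86 (adjusted p = 0.847 in limma), an interval of 0.193-fold to 3.17-fold, and it turned above 0 without exosome 3 or without saline 3.

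Of the large proteoglycans, Hspg2 encodes perlecan. It stood at 196.2, 195.3 and 185.3 FPKM in the exosome libraries, against 212.0, 150.6 and 158.2 FPKM in the saline libraries. The exosome libraries lay close together, with a coefficient of variation of 3.16% against 19.3% for saline, and all 3 lay between saline 3 and saline 1. The log2 difference was 0.16 with a standard error of 0.15 (adjusted p = 0.573 in limma), an interval of 0.884-fold to 1.42-fold. It was 0.31 without saline 1, 0.069 without saline 2 and 0.10 without saline 3.

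Vcan encodes versican, which ADAMTS proteases cleave during matrix turnover. It stood at 77.5, 78.1 and 95.5 FPKM in the exosome libraries, against 85.6, 59.0 and 89.1 FPKM in the saline libraries. Exosome 3 was the highest and saline 2 the lowest, and the groups overlapped. The log2 difference was 0.12 with a standard error of 0.18 (adjusted p = 0.739 in limma), an interval of 0.816-fold to 1.45-fold, and it was -0.067 without saline 2.

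Summed over the 9 genes, the core protein RNA came to 5611, 6897 and 5772 FPKM in the exosome libraries, against 6923, 6962 and 7743 FPKM in the saline libraries. The sums did not overlap as deposited, by a margin of 6897 against 6923 FPKM, nor after rescaling to the median of ratios, but they overlapped once each library was rescaled to the same total (TPM). Bgn made up most of each sum, with shares of 59.5%, 57.9% and 56.4% in the exosome libraries, against 65.4%, 53.4% and 60.4% in the saline libraries. Without Bgn the sums overlapped, at 2275 to 2905 FPKM with exosomes and 2395 to 3242 FPKM with saline. Dcn held 17.3% to 20.5% of the sum in exosome libraries and 13.0% to 22.3% in saline libraries. Hspg2 held 2.83% to 3.50% in exosome libraries and 2.04% to 3.06% in saline libraries. No test was run on the sum, since the genes were chosen with results known.

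**Figure D3:**
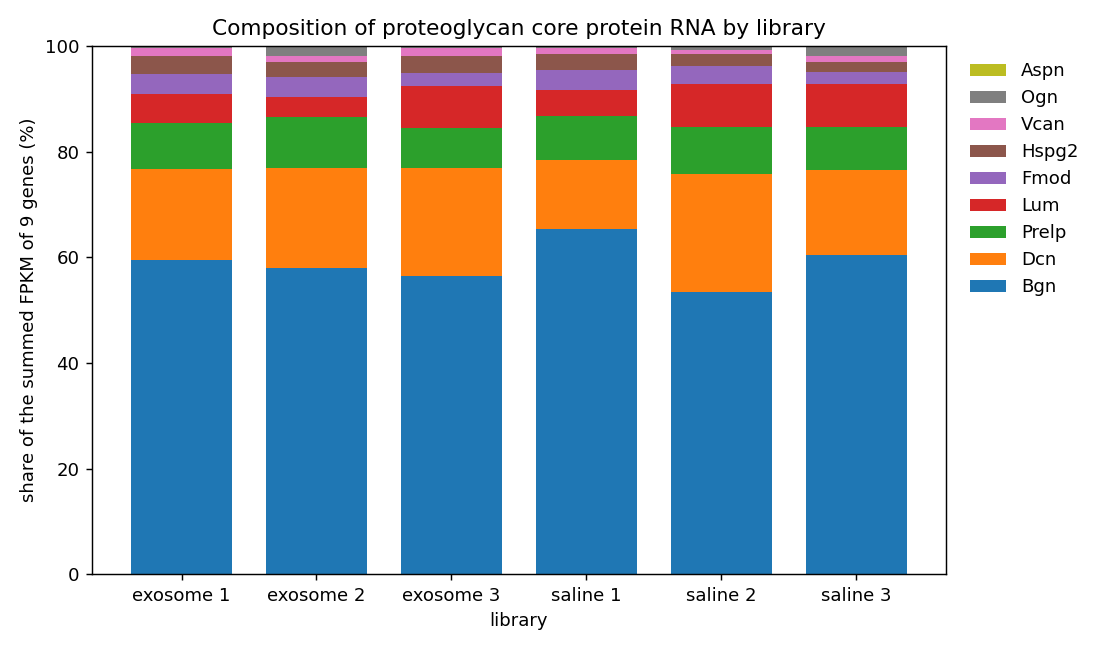
Share of each gene in the summed FPKM of the 9 core protein genes (%), by library, with exosome libraries on the left and saline libraries on the right. Bgn takes 53.4% to 65.4% of every bar and Dcn 13.0% to 22.3%, while Ogn and Aspn form thin bands at the top.

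Ratios of 2 genes within a library do not depend on the library total. Biglycan and decorin carry chains of the same kind, and Bgn was 3.44, 3.05 and 2.75 times Dcn in the exosome libraries, against 5.04, 2.39 and 3.75 times in the saline libraries. The exosome ratios all lay inside the saline range, and the log2 difference of the ratio was -0.22 (exact permutation test, two-sided, p = 0.6). Hspg2 was 2.53, 2.5 and 1.94 times Vcan in the exosome libraries, against 2.48, 2.55 and 1.78 times in the saline libraries. The log2 difference of that ratio was 0.044 (exact permutation test, two-sided, p = 0.7). Adjusted over the 2 ratios, both exact p-values were 0.7, where 3 libraries against 3 allow no exact p below 0.1.

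Most SLRP genes lie next to one another in the rat genome, in the gene order of the GRCr8 assembly. Dcn and Lum are followed by Kera and Epyc, which encode keratocan of the cornea and epiphycan of cartilage. Kera was listed at 0 in 5 libraries and at 0.0171 FPKM in saline 2. Epyc stood at 1.17, 0.147 and 4.39 FPKM in the exosome libraries, against 2.43, 4.18 and 14.6 FPKM in the saline libraries. Saline 3, the highest Lum library, was also the highest for Epyc, and exosome 2, the lowest for Lum, was the lowest for Epyc. Dcn, beside Lum, was highest in saline 2 and lowest in saline 1. The log2 difference of Epyc was -1.46 with a standard error of 0.68 (adjusted p = 0.337 in limma), -0.83 without saline 3 and -0.93 without exosome 2. With 8 to 962 reads per library, it moved to -2.50 with a pseudocount of 0.01. Epyc is also 1 of 6 cartilage markers, whose summed level was 14.1 to 23.3 FPKM in exosome libraries and 13.9 to 36.4 FPKM in saline libraries. That sum includes Epyc itself, at 14.6 of the 36.4 FPKM in saline 3. Comp, the only other marker of this list that was tested, had a log2 difference of 0.014 (adjusted p = 0.985 in limma). The part of cartilage cells in the Epyc difference was not tested.

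Prelp and Fmod lie beside Optc, which encodes opticin, an SLRP known from the vitreous of the eye. Optc stood at 13.1, 15.7 and 8.52 FPKM in the exosome libraries, against 17.4, 16.6 and 17.6 FPKM in the saline libraries. All exosome libraries lay below all saline libraries for this gene, which held for 11.7% of all genes tested, and its log2 difference was -0.48 (adjusted p = 0.309 in limma). Exosome 3 was the lowest library for Optc, Prelp and Fmod alike, and exosome 2 was the highest exosome library for each. Bgn and Ogn, outside this group of neighbours, had the same highest and lowest exosome libraries. Among saline libraries, saline 3 was the highest for Prelp (636.9 FPKM) and the lowest for Fmod (166.3 FPKM). Over the 6 libraries, Prelp had a Pearson correlation of 0.58 with Fmod, 0.80 with Ogn and 0.74 with Bgn. These were the highest of the 36 pairs of core protein genes, of which 20 were above 0 and whose median was 0.07. The lowest was -0.86, between Lum and Hspg2. Of the other neighbours, Dcn and Lum had 0.50 and Ogn and Aspn -0.59.

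Ogn lies with Omd, Aspn and Ecm2 inside the span of Cenpp, and no value of Cenpp itself was used here. Omd, which encodes the bone SLRP osteomodulin, stood at 2.81, 8.18 and 4.07 FPKM in the exosome libraries, against 2.23, 4.56 and 2.56 FPKM in the saline libraries. Ecm2, a matrix protein gene related to the SLRPs, stood at 8.96, 27.97 and 15.3 FPKM in the exosome libraries, against 7.79, 24.1 and 34.9 FPKM in the saline libraries. Ecm2 shared with Ogn the highest exosome library, exosome 2, and the highest saline library, saline 3. The same libraries were also the highest of their groups for Prelp and Bgn, which are not in this group of neighbours. Aspn was lowest in exosome 2 and lowest among saline libraries in saline 3. The log2 differences of Omd (0.49) and Ecm2 (-0.25) had adjusted p-values of 0.481 and 0.831 in limma.

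**Figure D4:**
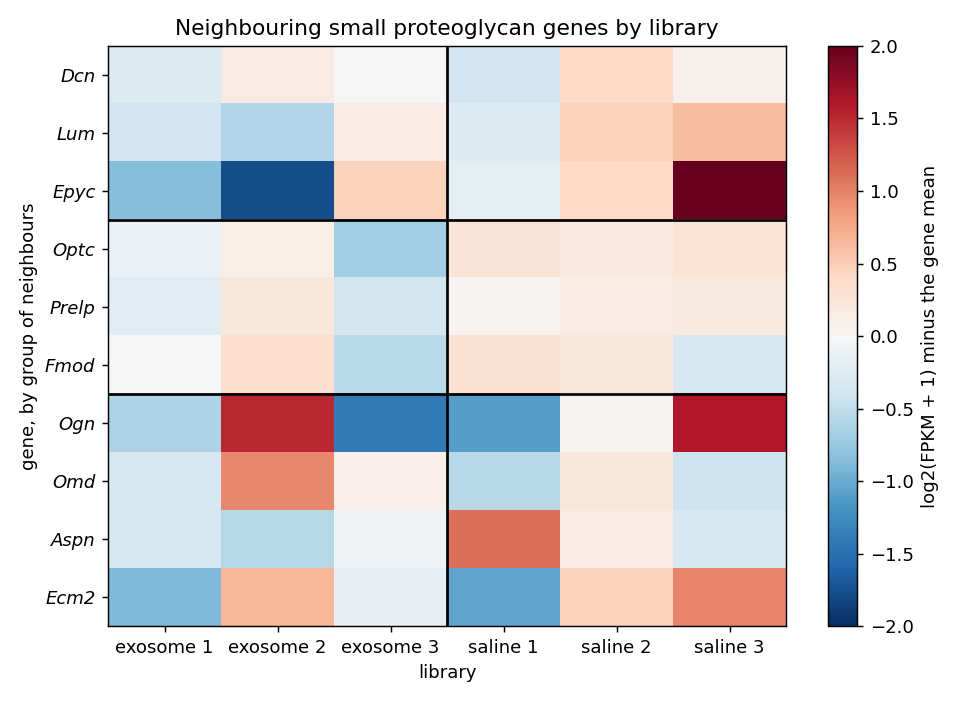
Log2(FPKM + 1) of 10 SLRP family genes minus the mean of each gene over the 6 libraries (colour scale), in 3 groups of neighbouring genes divided by horizontal lines, with exosome libraries to the left of saline libraries. Ogn and Ecm2 are high in exosome 2 and saline 3, Aspn is high in saline 1, and Optc, Prelp and Fmod are low in exosome 3.

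By Pearson correlation of log2(FPKM + 1) over the 6 libraries, given as a description of genes that share these libraries and were picked as the highest of 11742, the genes most like Dcn were Zfp654 (r = 0.982), Akr1c19 (0.979) and Fam208a (0.976). Those most like Vcan were Slc39a6 (r = 0.988), Dph5 (0.986) and Homer2 (0.983). Those most like Hspg2 were Lpcat4 (r = 0.996), Msantd2 (0.995) and Npm3 (0.987). For Ogn, chosen after its values were seen, they were Rapgef6 (r = 0.995), Creg1 (0.992) and Tspyl1 (0.990). The 9 core protein genes themselves were left out of this search.

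Genes that build, modify, cut or bind proteoglycans were listed in 11 groups with 141 genes, of which 100 were tested and none passed the adjusted threshold in limma. With library weights, an estimate that did not converge, 23 of the 100 passed, where 3268 of all 11742 genes did. With gene-by-gene weights 8 of the 100 passed, where 618 of all 11742 genes did. At an unadjusted p under 0.05 there were 12 higher and 10 lower genes among the 100, against 6.75% higher and 9.24% lower among all genes. That excess of lower genes among all genes turned round with scaling. As TPM, 984 were higher and 798 lower of the 12937 genes that then reached the minimum. The counts were 1084 and 886 of 11739 genes with the median of ratios, and 1047 and 898 of 11742 with quantile normalization. The related genes then numbered 16 higher and 7 lower of 109 as TPM, 14 and 6 of 100 with the median of ratios, and 12 and 9 of 100 with quantile normalization. Groups did not overlap for 11 of the 100 genes with exosomes higher and for 10 with exosomes lower, against 9.40% and 11.7% of all genes. The genes named below were picked from the lists by smallest p. Counts of higher and lower means by list, given below, stand against 60.7% lower among all genes tested as deposited. That share was 51.5% after rescaling to the median of ratios. Of 6 other SLRP family genes tested, 3 had higher and 3 lower means. Tsku, which encodes tsukushi, an SLRP that binds BMP and Wnt proteins, stood at 10.5, 8.37 and 16.1 FPKM in the exosome libraries, against 7.74, 7.49 and 5.24 FPKM in the saline libraries. The groups did not overlap for Tsku, as for 9.40% of genes in this direction, and its adjusted p was 0.288 in limma.

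Of 9 genes tested in a list of other matrix proteoglycans and related matrix proteins, 3 had higher and 6 lower means (median log2 difference -0.05). Smoc1, a calcium-binding matrix protein gene, stood at 256.1, 249.9 and 221.4 FPKM in the exosome libraries, against 304.3, 302.9 and 399.8 FPKM in the saline libraries. The groups did not overlap, and the log2 difference was -0.46 (adjusted p = 0.268 in limma). Prg4, the gene of lubricin, and Esm1, the gene of the endothelial proteoglycan endocan, had log2 differences of 0.58 and 0.35 (adjusted p = 0.466 and 0.512 in limma). Without exosome 1 they were 1.05 and 0.56, and without exosome 2 they were 0.23 and 0.099. Between 51 and 157 reads per library stood behind Esm1.

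Cell-surface proteoglycans were the syndecans and glypicans with heparan sulfate chains together with Cspg4 and Tgfbr3. They had 5 higher and 5 lower means on the log2 scale among 10 tested. Sdc1, counted as lower (log2 difference -0.0195), had mean FPKM of 19.1 with exosomes and 18.5 with saline. Sdc4, the gene of syndecan-4, a co-receptor at focal adhesions, stood at 31.9, 31.2 and 41.9 FPKM in the exosome libraries, against 22.9, 27.2 and 28.2 FPKM in the saline libraries (adjusted p = 0.288 in limma). Cspg4, the gene of the chondroitin sulfate proteoglycan NG2 of pericytes and smooth muscle, stood at 137.1, 102.9 and 169.0 FPKM in the exosome libraries, against 119.7, 70.5 and 65.6 FPKM in the saline libraries. Saline 1 overlapped the exosome range for Cspg4 (log2 difference 0.70, adjusted p = 0.291 in limma). Sdc3 had a log2 difference of -0.31 (adjusted p = 0.339).

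Genes of the sugar chains were divided by chain type. For the linkage region and chondroitin or dermatan sulfate, the chains of biglycan, decorin and versican, 8 of 19 tested means were higher and 11 lower. Chst3, a sulfotransferase that makes chondroitin 6-sulfate, stood at 10.9, 8.45 and 11.5 FPKM in the exosome libraries, against 6.61, 7.14 and 5.77 FPKM in the saline libraries. Csgalnact1, which starts chondroitin chains, stood at 12.1, 9.06 and 12.2 FPKM in the exosome libraries, against 7.69, 7.33 and 5.01 FPKM in the saline libraries. Both had groups that did not overlap, with log2 differences of 0.58 and 0.67 (adjusted p = 0.255 and 0.256 in limma). Chst12, a sulfotransferase that makes chondroitin 4-sulfate, stood at 18.1, 19.4 and 17.1 FPKM in the exosome libraries, against 25.5, 22.05 and 25.8 FPKM in the saline libraries. It also had groups apart, in the other direction (log2 difference -0.40, adjusted p = 0.255 in limma).

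For heparan sulfate, the chain of perlecan, 8 of 12 tested means were higher. Ndst1, which places the first sulfate groups on the chain, stood at 59.1, 61.8 and 55.2 FPKM in the exosome libraries, against 49.5, 37.9 and 35.9 FPKM in the saline libraries. The groups did not overlap, with a log2 difference of 0.52 (adjusted p = 0.255 in limma). Extl2 (log2 difference -0.47, adjusted p = 0.339) and Hs6st1 (0.28, adjusted p = 0.366) came next by p. For keratan sulfate, the chain of lumican and fibromodulin, 3 of 4 tested means were higher, and B3gnt2 (0.31), B4galt1 (0.16) and B4galt4 (-0.07) had adjusted p-values of 0.455, 0.458 and 0.818 in limma. For supply of the sulfate donor, 7 of 8 tested means were lower (median log2 difference -0.20). Bpnt1, a phosphatase that clears the by-product of sulfation, stood at 10.1, 8.82 and 7.17 FPKM in the exosome libraries, against 10.6, 13.98 and 13.5 FPKM in the saline libraries (adjusted p = 0.272 in limma). Slc35b2, which carries the donor into the Golgi, and Slc26a2, a sulfate transporter, had log2 differences of -0.37 and -0.35 (adjusted p = 0.311 and 0.337).

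Proteoglycan-cleaving ADAMTS genes had 3 higher and 3 lower means on the log2 scale among 6 tested. Adamts8, counted as higher (log2 difference 0.0165), had mean FPKM of 58.5 with exosomes and 59.4 with saline. Adamts1, a versican-cleaving protease, stood at 101.6, 175.7 and 63.8 FPKM in the exosome libraries, against 141.9, 243.0 and 264.3 FPKM in the saline libraries. Exosome 2 lay above saline 1, so the groups overlapped (log2 difference -0.99, adjusted p = 0.291 in limma). Adamts9, another versican-cleaving protease, stood at 14.1, 13.6 and 14.2 FPKM in the exosome libraries, against 12.1, 9.58 and 4.81 FPKM in the saline libraries (log2 difference 0.68, adjusted p = 0.304 in limma). Adamts15 had a log2 difference of -0.26 (adjusted p = 0.395).

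Hyaluronan, to which versican binds, had 3 higher and 3 lower means among 6 tested genes of its breakdown, linking and receptors. The synthase genes Has1, Has2 and Has3 did not reach the minimum for testing. Hyal2, a hyaluronidase anchored to the cell surface, stood at 16.5, 23.4 and 16.96 FPKM in the exosome libraries, against 12.4, 9.85 and 10.1 FPKM in the saline libraries. The groups did not overlap, with a log2 difference of 0.75 and the smallest unadjusted p of the 100 genes, 0.00205 (adjusted p = 0.247 in limma). Lyve1, a hyaluronan receptor of lymphatic endothelium and of some resident macrophages, stood at 8.93, 11.3 and 14.9 FPKM in the exosome libraries, against 7.98, 8.31 and 6.75 FPKM in the saline libraries (adjusted p = 0.285 in limma). Within the exosome group, Lyve1 and the macrophage marker sum (106.6 FPKM) were highest in exosome 3 and the endothelial marker sum (160.8 FPKM) in exosome 2. The part of these cell types in the Lyve1 values was not tested. Hyal1, the lysosomal hyaluronidase, stood at 55.8, 58.3 and 55.3 FPKM in the exosome libraries, against 56.4, 115.7 and 98.3 FPKM in the saline libraries (adjusted p = 0.304 in limma).

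Among partners in the matrix, 5 of 11 tested genes in the list of collagens bound by SLRPs had higher means and 6 lower means. The higher means were those of Col6a1, Col6a2, Col6a3, Col12a1 and Col14a1. The lower means were those of Col1a1, Col1a2, Col3a1, Col5a1, Col5a2 and Col5a3. Col12a1, a collagen of fibril surfaces, had a log2 difference of 0.64, Col5a2, which sets fibril diameter, of -0.25, and Col6a2 of 0.21, with adjusted p-values of 0.285, 0.311 and 0.351 in limma. The groups did not overlap for any of these 3 genes, as for 21.1% of all genes tested. Of 9 basement membrane partners of perlecan, 7 had higher means on the log2 scale (median log2 difference 0.10). Col4a2, counted as higher (log2 difference 0.0037), had mean FPKM of 91.6 with exosomes and 91.8 with saline. Lama5, the gene of a laminin chain made by endothelium, stood at 22.5, 18.3 and 23.1 FPKM in the exosome libraries, against 15.1, 13.4 and 9.88 FPKM in the saline libraries (log2 difference 0.71, adjusted p = 0.255 in limma). Lamc1 had a log2 difference of 0.56 and Lama4 of 0.31 (adjusted p = 0.291 and 0.330).

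**Figure D5:**
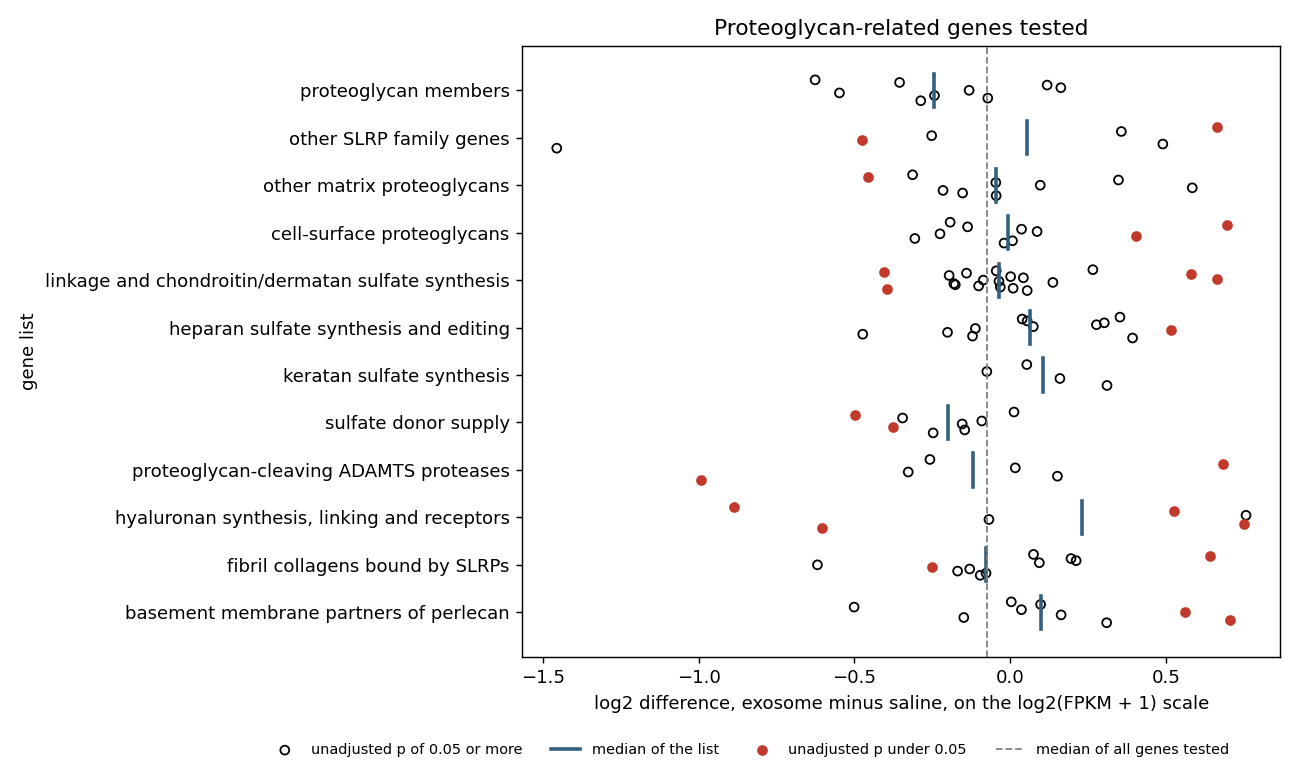
Log2 difference of each tested gene, exosome minus saline, on the log2(FPKM + 1) scale (horizontal axis), for the 9 core protein genes and 11 lists of related genes (vertical axis). Filled points have an unadjusted p under 0.05, blue bars are list medians, and the dashed line is the median of all genes tested, -0.07. No point passed the adjusted threshold, and the lists spread to both sides of 0.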

How the data were processed

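The authors deposited a single table of FPKM values per gene symbol for 6 libraries, made with the SMARTER mRNA-seq kit per the labels' protocols. DESeq2 1.28.1 is named, with no role, in the submitters' processing notes. The sources used here name no aligner, genome build, annotation or strand setting, so reads of overlapping genes could not be separated. FPKM values were whole multiples of 1 step per gene and library, from which reads were recovered. For 100.0% of the 18430 symbols above 0, a gene length was found that gave whole reads in every library, within a tolerance of 0.02. The shortest such length was taken, so recovered reads can be too few, mainly for symbols above 0 in few libraries. The test was limma 3.58.1 (R 4.3.3) on log2(FPKM + 1), with intensity trend, two-sided, for genes averaging 1 FPKM or more, without covariates, and with Benjamini-Hochberg adjustment over all genes tested at a threshold of 0.05. This scale understates changes of low genes. Ratios were tested by exact permutation (scipy 1.17.1). The procedure was tested on simulated data. The genes, lists and tests were chosen with earlier results of these data known. All core protein genes were named, and from each list the 3 members with the smallest p. Alternatives were other pseudocounts, filters, scalings, moderations, library weights, a replicate block, limma-voom on recovered reads and each library left out.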

Additional observations from a re-analysis of the deposited data

How the results depend on the processing

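In the alternatives that kept all 6 libraries, no core protein gene changed direction, and none passed except with library weights, where 2 passed: Lum (-0.76) and Prelp (-0.37). That estimate did not converge and weighted exosome 1 at 9.20 and exosome 2 at 0.305. It called 3268 genes in all, and a gene-by-gene weighting added after the data were seen called 618 genes and 0 core protein genes. The gene-by-gene weighting also put exosome 1 highest, at 2.81, and exosome 2 lowest, at 0.386. The 33 named related genes were picked by smallest p in the reported fit, where none passed, so they do not stand for their lists. Of these 33, 21 passed with library weights and 8 with gene-by-gene weights (Cspg4, Chst3, Csgalnact1, Ndst1, Adamts1, Hyal2, Lama5 and Lamc1). Of all 100 related genes tested, 23 and 8 passed, where 3268 and 618 of all 11742 genes did. Prg4 (-0.15) and Esm1 (-0.019) turned below 0 with library weights. Quantile normalization called 2 genes. Leaving out each library in turn gave 0 to 9 genes in all and 0 core protein genes. Dcn then ranged from -0.28 to 0.11 and was 0.05 without exosome 1. Fmod ranged from -0.33 to 0.11, Ogn from -1.20 to 0.35 (0.27 without exosome 3) and Vcan from -0.067 to 0.23. B4galt4, at -0.07 with all libraries, ranged from -0.20 to 0.039. The log2 difference of the Bgn to Dcn ratio ranged from -0.50 to 0.035, and that of the Hspg2 to Vcan ratio from -0.12 to 0.17 (-0.02 without exosome 1 and -0.01 without exosome 2). The causes were not tested. A fit with the replicate number as a block called 1 gene and 0 core protein genes. Same-numbered libraries deviated with correlations of 0.07, 0.10 and -0.17, so the numbers were not taken as pairs. Leaving out 1 library moved the value by over 1.5 times or changed its sign for 7 of 9 core protein genes and 16 of 33 named related genes. Reads were fewest for Epyc (8 to 962 per library), Esm1 (51 to 157) and Aspn (54 to 382).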
